A study of Homo sapiens with 12 samples.

Results

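The transcriptional effect of MESH1 knockdown was measured in RCC4 cells whose ATF4 had been silenced at the same time. RCC4 is an established line derived from a clear cell renal carcinoma. The comparison sets 3 arrays of cells given siRNAs against both genes (siMESH1+siATF4) against 3 arrays of cells given the ATF4 siRNA alone (siATF4), which is 6 of the 12 arrays of the series. The other groups, also of 3 arrays each, received a non-targeting siRNA (siNT) or the MESH1 siRNA alone (siMESH1). All cultures carried the same line and no drug was given. Each well received siRNA in an amount of 40 pmol and was collected after 72 h. MESH1 was targeted by 1 siRNA and ATF4 by a pool. Effects of the MESH1 siRNA on other targets therefore cannot be told apart from MESH1 loss on these arrays. Below, MESH1 knockdown means treatment with this siRNA. Neither the labels nor the methods state the share of each siRNA in the double knockdown, or whether the siATF4 wells were filled up with non-targeting siRNA. The labels call the arrays biological replicates of each group.

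MESH1, encoded by HDDC3, is the animal relative of the bacterial enzymes that remove the stringent-response alarmone, and it also dephosphorylates cytosolic NADPH. ATF4 is the transcription factor at the end of the integrated stress response. Phosphorylation of eIF2α slows general translation and favours translation of ATF4, which then drives genes of amino acid supply, redox balance and, under lasting stress, cell death. Silencing ATF4 as well therefore asks which part of the response to MESH1 loss is seen when this factor is reduced.

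Each deposited value is a log2 signal minus the mean of the siNT arrays for the same probe set, so every value below is a log2 difference and never a level. A gene is the mean of its probe sets with exactly 1 symbol, which gave 11963 genes. The array medians over genes lay between -0.0102 and 0.0301. ATF4 stood at -2.29, -2.33 and -2.30 in the siATF4 arrays and at -2.27, -2.46 and -2.23 in the siMESH1+siATF4 arrays, against -0.10 to 0.098 in siNT. The ATF4 transcript was thus low in both groups compared, and they differed by -0.016 (SE 0.070, limma adjusted p = 0.93). HDDC3 was not analysed here, since 0 probe sets carried its symbol, so the MESH1 knockdown itself could not be checked on these arrays. A table without levels also gave no means of checking the renal label of the line. Control probe sets were compared between the groups in 4 tests. The 3′ minus 5′ difference of ACTB changed by -0.0075 (exact two-sided permutation test, p = 0.9) and that of GAPDH by 0.068 (exact p = 0.4). The 18 hybridisation and 27 poly-A spike-in probe sets differed by -0.179 (exact p = 0.2) and 0.107 (exact p = 0.1, the smallest that 3 against 3 arrays allow). After Benjamini-Hochberg adjustment over the 4 exact tests the p-values were 0.9, 0.533, 0.4 and 0.4.

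A gene was called when its Benjamini-Hochberg adjusted p in limma was under 0.05 over all genes and its log2 change reached 0.5, which is 1.41-fold. Adding MESH1 knockdown to ATF4 knockdown changed 195 genes, which is 1.63% of those tested. Of these 153 fell (1.28%) and 42 rose (0.351%). The arrays of the groups did not overlap for any of the 195. The call itself favours such genes, so this gives it no separate support. The falls were led by the collagenase MMP1, the cyclin CCND1 and genes of DNA replication and mitosis, and the rises by LGSN, by EFEMP1 and by the secretory granule proteins SCG2 and CHGB. Changes were moderate in size. With a minimum change of 1 on the log2 scale, 17 falls and 4 rises were left. The split between directions depended on the scaling. When each array was centred on the mean of 11 housekeeping genes, which shifts this comparison by 0.0739, 113 genes fell and 91 rose, so that rises made up 44.6% of the calls in place of 21.5%. All 42 rises and 113 of the 153 falls were called under both scalings. Centring on the array median gave 153 falls and 44 rises. Of the 11 housekeeping genes 0 were called in this comparison, while 3 fell with MESH1 knockdown alone and 2 with ATF4 knockdown alone. They were thus not a fixed reference across the groups.

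**Figure D1:**
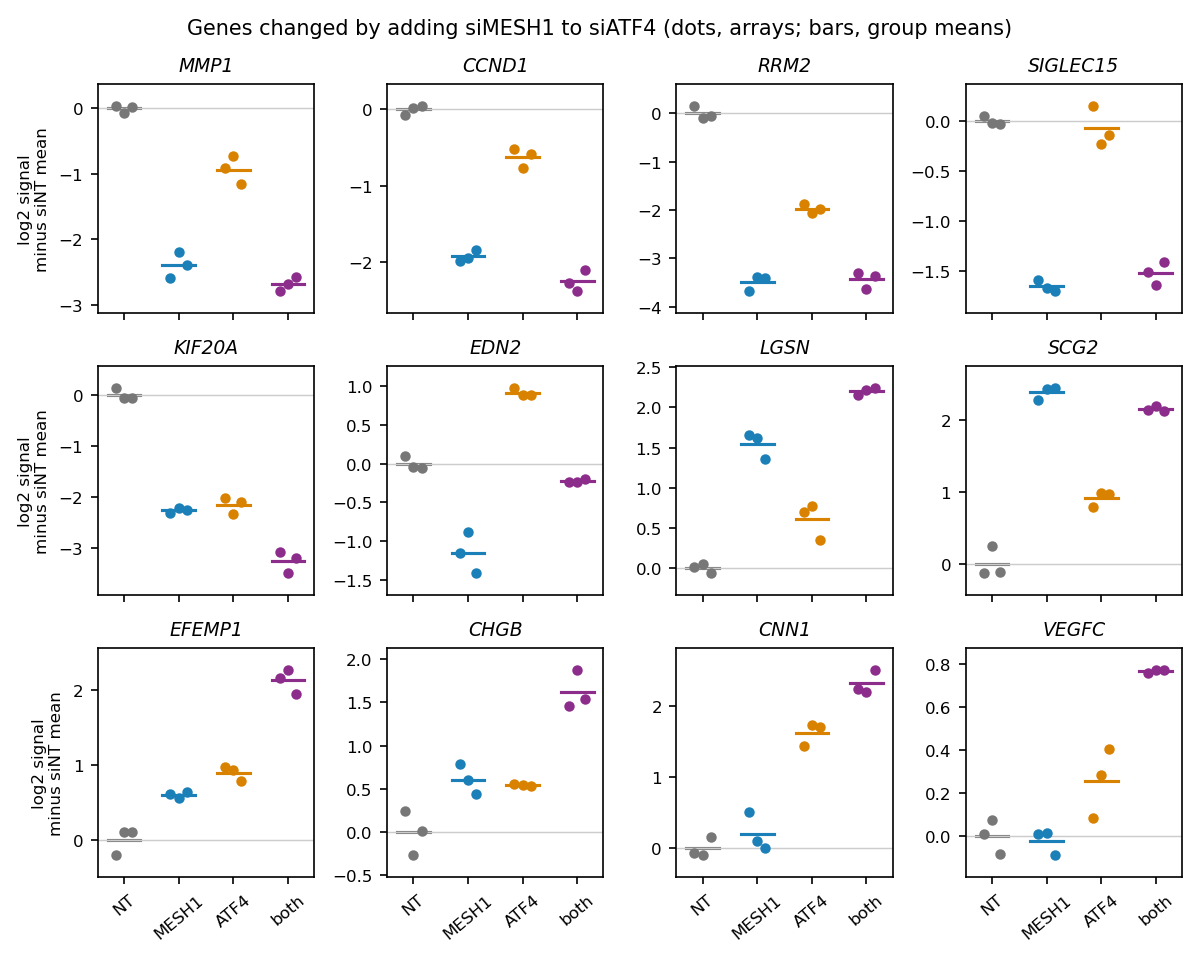
Difference of the log2 signal from the mean of siNT (vertical axis, scaled for each panel) for 12 genes in the 4 groups of 3 arrays. Dots are arrays and bars are group means. For all 12 genes the arrays with both siRNAs (right) lie apart from those with the ATF4 siRNA alone, below them for MMP1 to EDN2 and above them for LGSN to VEGFC.

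The largest fall was that of MMP1, which cleaves fibrillar collagen. Its values were -0.92, -0.73 and -1.16 in siATF4 and -2.78, -2.68 and -2.58 in siMESH1+siATF4. The groups were well apart, with a difference of -1.75 (SE 0.11, adjusted p = 1.7e-06), a 3.35-fold fall. CCND1, the D-type cyclin that starts the G1 phase, stood at -0.52, -0.77 and -0.59 in siATF4 and at -2.28, -2.38 and -2.10 with both siRNAs. It fell by 1.63 on the log2 scale (SE 0.081, adjusted p = 2.4e-07). RRM2, a subunit of ribonucleotide reductase, was already low with siATF4 alone at -1.88, -2.07 and -1.97. Adding MESH1 knockdown took it to -3.30, -3.63 and -3.36, a further change of -1.45 (SE 0.10, adjusted p = 3.6e-06).

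Several strong falls lay outside the cell cycle. SIGLEC15, a sialic acid-binding receptor, read 0.15, -0.23 and -0.15 in siATF4 and -1.51, -1.64 and -1.40 with both siRNAs, so that ATF4 knockdown alone had left it near the siNT mean. Its difference was -1.44 (SE 0.089, adjusted p = 1.5e-06). NEFM, the medium neurofilament chain, changed by -1.32 (SE 0.16, adjusted p = 0.0002), with arrays at 0.053, -0.031 and -0.43 against -1.44, -1.79 and -1.13. F3, tissue factor, which starts blood coagulation, went from -1.20, -1.18 and -1.42 to -2.53, -2.43 and -2.38. Its groups were apart by -1.18 (SE 0.081, adjusted p = 3e-06). Among the 15 largest falls were also NETO2 (-1.16), an auxiliary subunit of kainate receptors, ASAP2 (-1.12), a GTPase-activating protein for Arf, and APOBEC3B (-1.08), a cytidine deaminase that is measured here only by probe sets whose names mark possible cross-hybridisation. The remaining members of the 15, DTL, SHCBP1, EDN2, PBK, KIF14 and KIF20A, are described below.

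Genes of cell division fell together. Of 63 measured genes of cell cycle and mitosis, 34 fell (54.0%, beside 1.28% of all genes) and 0 rose. The median of the list was -0.549 beside -0.000721 over all genes. SHCBP1, a SHC-binding protein of dividing cells, was -1.70, -2.28 and -2.05 in siATF4 and -3.05, -3.44 and -3.06 with both siRNAs, a change of -1.17 (SE 0.13, adjusted p = 0.0001). The mitotic kinesin KIF20A went from -2.02, -2.34 and -2.10 to -3.08, -3.49 and -3.20, a change of -1.11 (SE 0.10, adjusted p = 3.4e-05). Neither gene's groups overlapped. PBK, a mitotic kinase, fell by 1.13 on the log2 scale, the kinesin KIF14 by 1.11, the spindle protein DLGAP5 by 1.02 and KIF2C, a kinesin that shortens microtubules, by 0.96. CCNB2, a B-type cyclin, stood at -1.80, -1.85 and -1.82 in siATF4 and at -2.66, -2.83 and -2.72 with both, a change of -0.91 (SE 0.060, adjusted p = 1.9e-06). Its partner kinase CDK1 changed by -0.68 and CDC20, an activator of the anaphase-promoting complex, by -0.94. The weakest of the called members was UBE2C (-0.51), a ubiquitin-conjugating enzyme of the same complex.

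The replication machinery moved in the same direction with fewer calls. In the list for DNA synthesis and nucleotide supply, 10 of 49 measured genes fell (20.4%, beside 1.28% of all genes) and 0 rose (median -0.333). After RRM2 the strongest was DTL, which targets replication proteins for degradation, at -1.53, -1.77 and -1.58 in siATF4 and -2.60, -3.06 and -2.77 with both siRNAs. It changed by -1.18 (SE 0.12, adjusted p = 4.2e-05). The others were MCM10 (-1.06), TOP2A (-0.98), GINS2 (-0.82), ORC1 (-0.76), CDC6 (-0.76), CDC45 (-0.70), TK1 (-0.69) and MCM4 (-0.56), most of them factors that load or fire replication origins. Of 29 genes of DNA repair and checkpoint control 5 fell (17.2%) and 0 rose (median -0.0941): EXO1 and RAD51AP1 (both -0.71), BLM (-0.67), FANCI (-0.58) and TRIP13 (-0.51). Leaving out the second siMESH1+siATF4 array, 3 of these 5 stayed called. Of 28 regulators of E2F, RB and the G1 phase only CCND1 and CCNE2 (-0.53), an E-type cyclin, fell (7.1%). E2F1 differed by -0.19 (adjusted p = 0.25) and CDK2 by 0.014 (adjusted p = 0.91), and neither was called. The direction of CDK2 turned with the array left out. The lists above were named with earlier results of these data known, and RRM2, CDK2 and E2F1 were followed by the study itself.

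Because these genes fell together, the promoter windows of a few are shown, taken from RefSeq on build GRCh38.p14 and printed 5′ to 3′ on the strand of the gene from 150 bases upstream to the base before the start site. Capitals mark the letters of 4 motifs found on either strand: the cell cycle homology region TTTGAA, the CCAAT box, E2F letters (TTTGGCGC, TTTCCCGC, TTTGGCGG or TTTCCCGG) and the cAMP response element TGACGTCA. CCNB2 (chr15:59104996-59105145, plus strand) and CDC20 (chr1:43358831-43358980, plus strand) hold the first 2 motifs, DTL (chr1:212035598-212035747, plus strand) holds the last 3, and the second of the windows listed for RRM2 (chr2:10122589-10122738, plus strand) holds CCAAT boxes. CTH (chr1:70411118-70411267, plus strand), a gene that rose, also holds a CCAAT box. These windows were picked from 11 extracted because they hold motifs. The first window of RRM2 and that of KIF2C, which also fell, held 0 matches over the same bases, as did that of LGSN, which rose.
CCNB2: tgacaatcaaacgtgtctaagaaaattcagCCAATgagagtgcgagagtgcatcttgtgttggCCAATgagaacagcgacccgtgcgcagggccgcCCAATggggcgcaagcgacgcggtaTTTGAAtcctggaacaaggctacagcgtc
CDC20: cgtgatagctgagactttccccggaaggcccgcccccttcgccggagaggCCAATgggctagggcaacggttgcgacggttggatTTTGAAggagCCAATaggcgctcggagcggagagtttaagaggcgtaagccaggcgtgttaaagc
DTL: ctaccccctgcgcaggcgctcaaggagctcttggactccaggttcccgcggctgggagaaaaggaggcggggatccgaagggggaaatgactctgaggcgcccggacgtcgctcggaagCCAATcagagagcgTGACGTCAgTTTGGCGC
RRM2: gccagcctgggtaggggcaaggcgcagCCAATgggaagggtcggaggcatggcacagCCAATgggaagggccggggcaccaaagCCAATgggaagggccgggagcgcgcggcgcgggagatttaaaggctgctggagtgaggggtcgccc
CTH: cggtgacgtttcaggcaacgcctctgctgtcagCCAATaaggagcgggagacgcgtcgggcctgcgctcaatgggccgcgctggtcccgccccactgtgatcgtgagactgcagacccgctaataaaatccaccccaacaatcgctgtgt

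Over windows of 300 bases (250 before to 50 after the start), 9563 of the 11963 genes tested had at least 1 entry, 14045 windows in all, as did 125 of the 153 genes that fell and 33 of the 42 that rose. TTTGAA was found in 26.6% of the 154 windows of genes that fell, 11.1% of the 45 windows of genes that rose and 11.8% of all windows. CCAAT was found in 54.5%, 33.3% and 35.1%, and the E2F letters in 9.74%, 6.67% and 5.78%. Within the falls, the windows of the mitosis, replication and repair lists held TTTGAA in 42.9% and CCAAT in 77.6% of 49, beside 19.0% and 43.8% of the 105 windows of the other genes that fell. The other genes are those in none of these lists. They are not free of genes of dividing cells, since MKI67 is among them. The composite letters TGATGNAA, which ATF4 is known to bind with C/EBP partners, were in 2.46% of all windows. They were in 2 windows of genes that fell (1.3%) and 2 windows of genes that rose (4.44%). The cAMP response element was in 6 (3.9%) and 3 (6.67%) of these windows and in 2.58% of all. The motifs searched do not contain each other. Such a match is a description of letters and was not tested as a binding site.

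Genes that rose were fewer and belonged to no list as a group. Of the 42 rises, 37 were in none of the lists examined. LGSN, which encodes the lens protein lengsin, read 0.69, 0.78 and 0.36 in siATF4 and 2.15, 2.22 and 2.24 with both siRNAs. This was the largest rise, at 1.59 (SE 0.10, adjusted p = 1.9e-06), a 3.02-fold change with the groups clearly apart. SCG2, a granin of dense-core secretory vesicles, went from 0.78, 0.98 and 0.96 to 2.13, 2.19 and 2.12, a change of 1.24 (SE 0.094, adjusted p = 5.6e-06). Another granin, CHGB, was 0.55, 0.55 and 0.54 in siATF4 and 1.46, 1.88 and 1.54 with both, a change of 1.08 (SE 0.13, adjusted p = 0.00021). Both stood above the siNT mean in siATF4 and higher still after MESH1 knockdown was added. SCG5, a granin relative named after its values were seen, moved the other way and fell by 0.68 on the log2 scale (SE 0.19, adjusted p = 0.038), a call that was lost on leaving out any 1 of the 6 arrays compared, where the change was -0.77 to -0.57, or the first or second siMESH1 array.

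EFEMP1, an extracellular matrix fibulin, stood at 0.97, 0.93 and 0.79 in siATF4 and at 2.17, 2.27 and 1.95 with both siRNAs. Its groups were apart by 1.24 (SE 0.094, adjusted p = 5.6e-06). DENND5B, an exchange factor for Rab GTPases, rose by 0.97, and RTN2, a reticulon of the endoplasmic reticulum, by 0.96. The histone gene H2BC12 rose by 0.81 (SE 0.061, adjusted p = 5.1e-06) and was the only called member among 26 measured histone genes, a family of near-identical copies that short probes may not separate. PPL, a desmosome-associated plakin, BACH2, a transcriptional repressor, the membrane metalloreductase STEAP1, RHOBTB1, the smooth muscle protein CNN1, the magnesium transporter SLC41A3, the endocytic adaptor STON1 and the uncharacterised LOC728392 made up the rest of the 15 largest rises, at 0.67 to 0.81. BACH2 had the widest spread among them, at -0.34, -0.71 and -1.15 in siATF4 and 0.21, -0.048 and -0.17 with both. Its change of 0.73 (SE 0.17, adjusted p = 0.012) lost its call when the first siMESH1+siATF4 array was left out.

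The question whether MESH1 knockdown acts differently with ATF4 silenced was put to the same fit as an interaction: the effect of MESH1 knockdown on the silenced background (siMESH1+siATF4 against siATF4) minus its effect without ATF4 knockdown (siMESH1 against siNT). These effects share no arrays. The siRNA shares in the double knockdown are not stated and the MESH1 knockdown could not be measured. Unequal MESH1 silencing therefore cannot be told apart from the ATF4 background in any interaction below. MESH1 knockdown alone changed 980 genes (8.19% of those tested), of which 643 fell (5.37%) and 337 rose (2.82%). Under housekeeping centring, which shifts this comparison by 0.331, 291 genes fell and 2526 rose, so that rises made up 89.7% in place of 34.4%. Array median centring gave 704 falls and 289 rises. Over all 11963 genes the differences with and without ATF4 knockdown had a Pearson r of 0.686 and a Spearman rho of 0.517, values that describe genes, which are not independent replicates. They were narrower with ATF4 silenced, with an SD over genes of 0.170 against 0.330. No gene was called in opposite directions. Of the 153 falls on the silenced background 143 also fell with MESH1 knockdown alone (93.5% of the former and 22.2% of the 643). Of the 42 rises 27 also rose (64.3% of them and 8.01% of the 337). Turned the other way, 608 of the 643 genes that fell with MESH1 knockdown alone were also below 0 on the silenced background, with a median of -0.270 against -0.784, and 324 of the 337 that rose were above 0, with a median of 0.259 against 0.630. Those genes were picked on the siMESH1 arrays, which enter only the second value of each pair.

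**Figure D2:**
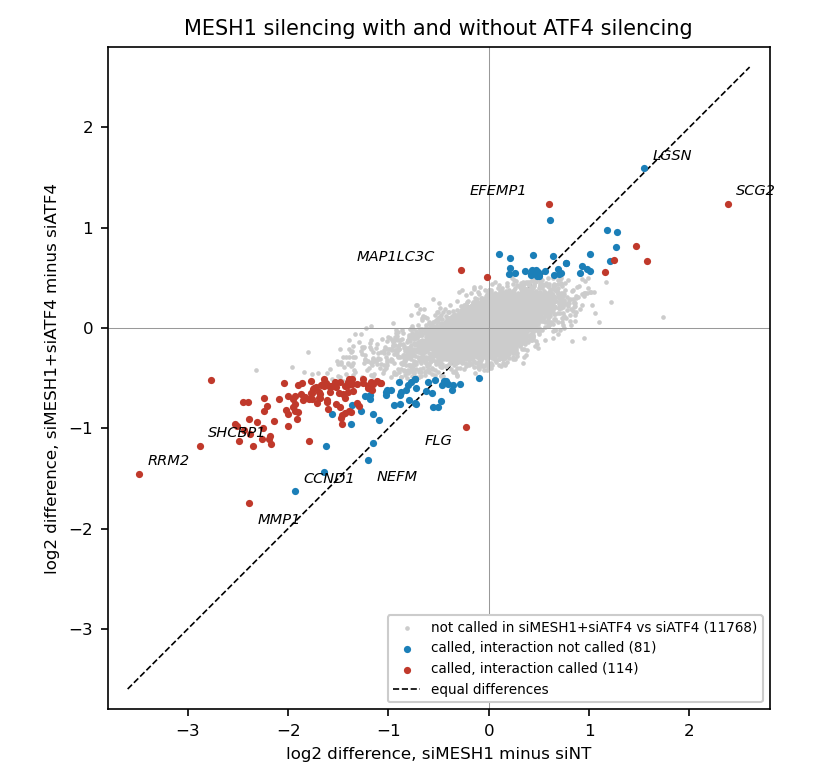
Log2 difference of each of 11963 genes on MESH1 knockdown in ATF4-silenced cells (vertical axis) against the difference without ATF4 knockdown (horizontal axis). Grey points were not called on the silenced background. Blue points (81) were called there with no call for the interaction and red points (114) with one. Most red points on the left lie between the horizontal axis line and the dashed line of equal differences.

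The interaction was called for 516 genes (4.31%), 414 of them positive (3.46%) and 102 negative (0.853%). This split turned round under housekeeping centring, with 196 positive and 1261 negative calls, so that positive ones made up 13.5% in place of 80.2%. Of the 11 housekeeping genes themselves 2 had a positive interaction call. Array median centring gave 466 positive and 85 negative calls. The 153 falls held 106 such genes. In 105 of them the fall was smaller on the silenced background than without it, and in 1 it was larger. RRM2 changed by -3.48 with MESH1 knockdown alone and by -1.45 with ATF4 silenced, an interaction of 2.03 (SE 0.15, adjusted p = 5.1e-06), with siMESH1 arrays at -3.66, -3.38 and -3.41 next to double-knockdown arrays at -3.30, -3.63 and -3.36. The arrays of these groups overlapped. SHCBP1 showed an interaction of 1.71 (SE 0.18, adjusted p = 5.9e-05) and PBK one of 1.36 (SE 0.14, adjusted p = 3.5e-05). KIF20A stood at -2.15 with siATF4 alone, at -2.26 with siMESH1 alone and lower, at -3.26, with both (interaction 1.16, SE 0.15, adjusted p = 0.00023).

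A further 38 genes fell in both comparisons with no call for the interaction. CCND1 changed by -1.93 without and -1.63 with ATF4 silenced (interaction 0.30, SE 0.11, adjusted p = 0.12), SIGLEC15 by -1.65 and -1.44 (0.21, SE 0.13, adjusted p = 0.35), NEFM by -1.20 and -1.32 (-0.12, SE 0.22, adjusted p = 0.81) and IGFBP3, an insulin-like growth factor binding protein, by -0.74 and -0.75 (-0.013, SE 0.081, adjusted p = 0.95). A missing call does not show that the effects were equal. Among rises, SCG2 changed by 2.38 without and 1.24 with ATF4 silenced (interaction -1.14, SE 0.13, adjusted p = 0.00011), and STON1, SLC41A3, H2BC12 and the axonemal dynein gene DNAI7 likewise rose less. LGSN changed by 1.54 and 1.59 (interaction 0.049, SE 0.15, adjusted p = 0.88).

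Of the 8 rises with a called interaction, 3 were larger with ATF4 silenced. EFEMP1 rose by 0.60 without and 1.24 with ATF4 knockdown (interaction 0.64, SE 0.13, adjusted p = 0.0082). VEGFC, a lymphangiogenic growth factor, read 0.0097, 0.012 and -0.088 in siMESH1, 0.082, 0.29 and 0.40 in siATF4 and 0.76, 0.77 and 0.77 with both. Its interaction was 0.53 (SE 0.10, adjusted p = 0.0055), and its rise of 0.51 lost the call without the first siATF4 array, at 0.42. Under housekeeping centring the interactions of EFEMP1 (0.38) and VEGFC (0.28) were not called, while that of MAP1LC3C was, at 0.60. MAP1LC3C, an autophagy protein of the LC3 family, was 1.41, 1.37 and 0.78 in siATF4 and 1.73, 2.00 and 1.59 with both. Its rise of 0.58 (SE 0.15, adjusted p = 0.024) was lost on leaving out the first or second siMESH1+siATF4 array or the third siATF4 array, where it was 0.38.

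Cell division genes fell less when ATF4 was silenced. With MESH1 knockdown alone 60 of the 63 genes of cell cycle and mitosis fell (median -1.72), with ATF4 knockdown alone 59 fell (median -1.39), and adding MESH1 to ATF4 knockdown lowered 34 (median -0.549). Over all genes 5.37% fell with MESH1 knockdown alone and 1.28% on adding it to ATF4 knockdown. The share for ATF4 knockdown alone is not given here. The interaction was positive and called for 59 of the 63 (median 1.08), for 40 of the 49 replication genes (median 0.830) and for 16 of the 29 repair genes (median 0.548). Of all genes 3.46% had a positive call. The list medians of the single arrays were -1.72 to -1.68 in siMESH1, -1.42 to -1.34 in siATF4 and -2.11 to -1.81 with both siRNAs. Both siRNAs together thus gave lower values than either alone in this list. The siATF4 arrays already stood low in this list, and with no levels in the table the part of a floor of the signal in the smaller falls was not tested. Under housekeeping centring the called interactions numbered 52, 30 and 8 for the 3 lists and stayed positive. Of all 414 positive interactions 196 stayed called, and all 102 negative ones did.

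**Figure D3:**
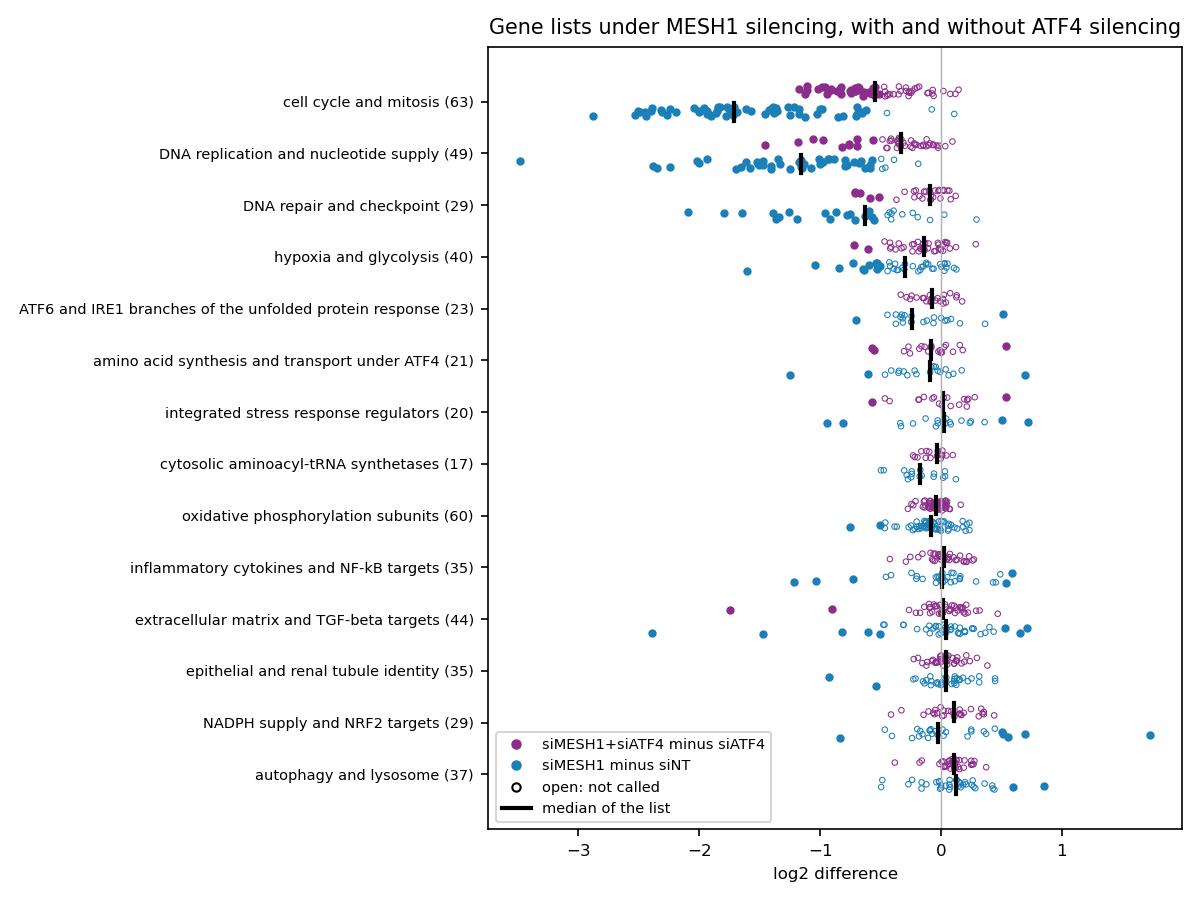
Log2 differences of the members of 14 gene lists (rows, number measured in parentheses) on MESH1 knockdown with ATF4 silenced (purple) and without (blue). Each point is a gene, filled where called, and black bars are list medians. The cell cycle, replication and repair lists lie to the left in both comparisons, less far in purple, while most other medians are near 0.

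The stress pathway that ATF4 serves held 5 called genes in 3 lists. Among 20 regulators of the integrated stress response 1 rose and 1 fell (median 0.0151), among 21 ATF4-regulated genes for making or importing amino acids 1 rose and 2 fell (median -0.0795), and of 17 cytosolic aminoacyl-tRNA synthetases 0 were called. Of all genes 1.63% were called in either direction. CTH, the enzyme that makes cysteine from cystathionine and a gene the study followed, was -0.13, -0.22 and -0.22 in siATF4 and 0.35 in each siMESH1+siATF4 array. It rose by 0.54 (SE 0.088, adjusted p = 0.0016) with the groups apart. Its rise with MESH1 knockdown alone was 0.70, and the interaction of -0.16 (SE 0.12, adjusted p = 0.49) was not called. The call was lost at 0.41 when the probe set of CTH that may cross-hybridise was dropped. CEBPB, a C/EBP factor that pairs with ATF4, went from 0.39, 0.37 and 0.39 to 0.90, 0.90 and 0.96, a rise of 0.54 (SE 0.049, adjusted p = 2.4e-05). With MESH1 knockdown alone it had risen by 0.50, so that the differences with and without ATF4 silenced were 0.035 apart (SE 0.069, adjusted p = 0.81).

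The falls among stress genes were of similar size. The death receptor gene TNFRSF10B read 0.26, 0.22 and 0.21 in siATF4 and -0.26, -0.42 and -0.33 with both siRNAs, a change of -0.57 (SE 0.051, adjusted p = 2.3e-05). SLC7A5, the large neutral amino acid transporter, went from 0.30, 0.47 and 0.50 to -0.12, -0.15 and -0.17, a change of -0.57 (SE 0.055, adjusted p = 4.2e-05). MTHFD2, a mitochondrial enzyme of folate metabolism, changed by -0.55 (SE 0.050, adjusted p = 2.4e-05), against -1.25 with MESH1 knockdown alone. The calls of all 3 were lost under housekeeping centring, where TNFRSF10B was at -0.4955 and SLC7A5 at -0.4946, just short of the minimum change. TRIB3, a pseudokinase that restrains ATF4, differed by -0.46 and the secreted glycoprotein STC2 by -0.43, each with an adjusted p under the threshold but less than the minimum change.

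The other stress genes that the study followed were not called. ATF3, a stress-induced repressor, was 0.27, 0.41 and 0.19 in siATF4 and 0.63, 0.61 and 0.47 with both, a difference of 0.28 (SE 0.076, adjusted p = 0.033) whose arrays did not overlap. DDIT3, which encodes CHOP, differed by -0.14 (adjusted p = 0.19). Of 23 genes of the ATF6 and IRE1 branches 0 were called (median -0.0748): HERPUD1, of the degradation machinery of the endoplasmic reticulum, differed by 0.18 (adjusted p = 0.042), XBP1 by -0.046 (adjusted p = 0.68) and the co-chaperone DNAJB9 by -0.28 (adjusted p = 0.0064). HERPUD1 had risen by 0.51 with MESH1 knockdown alone. The interaction of -0.33 (SE 0.072) fell short of the minimum change, and under housekeeping centring it was called, at -0.59.

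**Figure D4:**
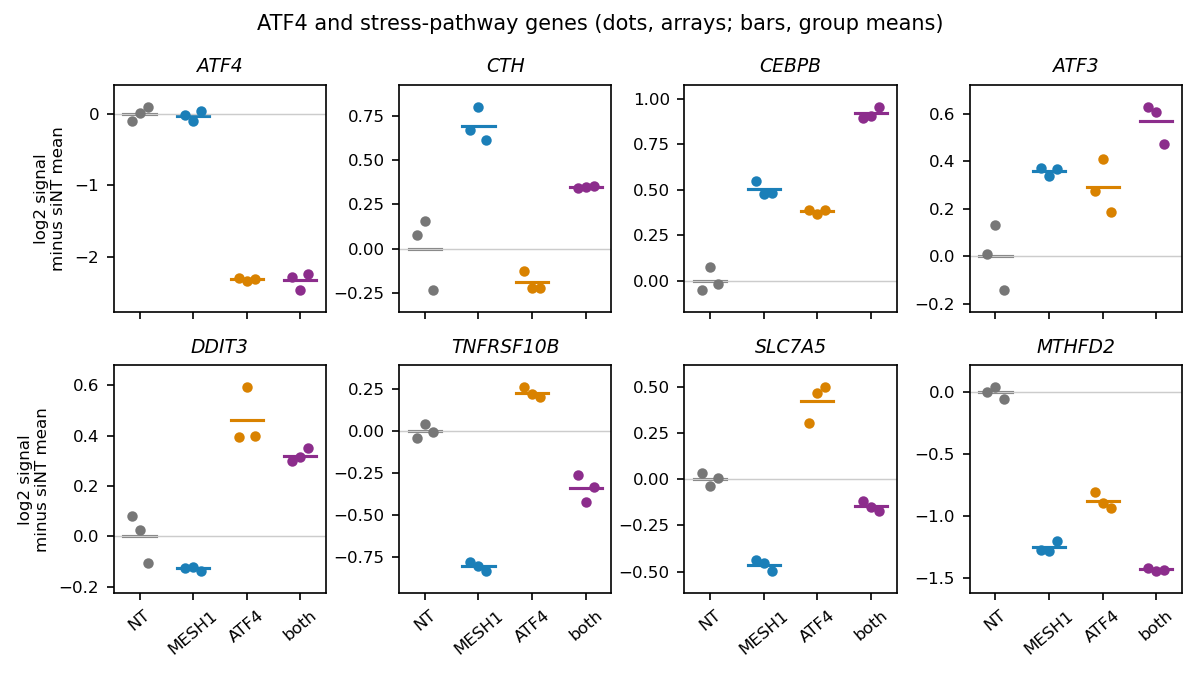
Difference of the log2 signal from the mean of siNT (vertical axis, scaled for each panel) for ATF4 and 7 stress-pathway genes in the 4 groups of 3 arrays. Dots are arrays and bars group means. ATF4 is near -2.31 in both groups with its siRNA, CTH and CEBPB are higher and TNFRSF10B, SLC7A5 and MTHFD2 lower with both siRNAs than with the ATF4 siRNA alone.

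Metabolic lists held 2 calls, where 1.63% of all genes were called in either direction. These calls describe single genes and not the lists. ACLY, which makes cytosolic acetyl-CoA from citrate, was -0.39, -0.38 and -0.27 in siATF4 and -1.03, -0.98 and -1.01 with both siRNAs. It fell by 0.66 on the log2 scale (SE 0.050, adjusted p = 5.5e-06), less than with MESH1 knockdown alone (-1.45), and was the only called member of 28 genes of sterol and fatty acid synthesis. All of its probe sets may cross-hybridise, and they ranged from -0.96 to -0.40. In the list of NRF2 targets and NADPH-producing enzymes, 0 of 29 were called (median 0.106). NADK, the NAD kinase, differed by 0.059 (adjusted p = 0.58), and TXNRD1, thioredoxin reductase, by 0.33 (adjusted p = 0.00097), under the minimum change. ACSL4, which activates polyunsaturated fatty acids and favours ferroptosis, read -0.21, -0.55 and -0.48 in siATF4 and 0.16, 0.23 and 0.14 with both. It rose by 0.59 (SE 0.13, adjusted p = 0.010), the only call among 25 genes of ferroptosis and iron handling.

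Hypoxia genes run high in clear cell renal carcinoma through loss of VHL. Of 40 measured, 2 fell (5.0%, beside 1.28% of all genes) and 0 rose, with a median of -0.143 and 32 below 0. CA12, a membrane carbonic anhydrase, fell by 0.72 on the log2 scale (SE 0.055, adjusted p = 5.6e-06) from near the siNT mean, and ADM, adrenomedullin, by 0.60 (SE 0.062, adjusted p = 6.6e-05). VEGFA differed by -0.16 (adjusted p = 0.14). Under housekeeping centring the list median was -0.0692, and the same number of genes was called.

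Of 24 YAP and TAZ targets F3, IGFBP3 (-0.75) and WWTR1 (-0.71), which encodes TAZ, fell, and of 44 matrix and TGF-beta targets MMP1 and LAMB3 did. These falls are 12.5% and 4.5% of the lists, beside 1.28% of all genes. The 20 smooth muscle genes held CNN1, which rose by 0.70, and TPM1, a tropomyosin whose fall of 0.64 shrank to -0.018 without probe sets that may cross-hybridise. In the list of 16 p53 targets TNFRSF10B was the only call, and in that of 40 cilium genes it was NEK2 (-0.64), a centrosomal kinase of mitosis. The 2 probe sets of NEK2 were unlike, at -1.17 and -0.11. No gene was called among 42 of the interferon response, 35 inflammatory and NF-kB targets, 37 of autophagy and lysosome, 51 cytosolic and 46 mitochondrial ribosomal proteins, 60 oxidative phosphorylation subunits, 25 heat shock chaperones, 35 of epithelial and renal tubule identity, or 22 markers of leukocytes and endothelium. In these last the medians of the arrays ran from -0.0016 to 0.0854 in siATF4 and from -0.0652 to 0.0342 with both siRNAs.

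The change made by ATF4 knockdown itself is measured with the same siATF4 arrays, so its values are given beside those of MESH1 knockdown and were not set against them. Of the 153 falls 83 were lower, 9 higher and 61 not called in siATF4 against siNT. Of the 42 rises 12 were higher, 2 lower and 28 not called there. The share of all genes called in siATF4 against siNT is not given here, so these counts cannot be read as an excess. EDN2, endothelin 2, read 0.98, 0.88 and 0.89 in siATF4 and -0.24, -0.24 and -0.20 with both siRNAs, a change of -1.14 (SE 0.10, adjusted p = 2e-05). In siMESH1 alone it was -1.16, -0.88 and -1.41, so that the double-knockdown arrays lay between those of the single knockdowns. LAMB3, a laminin chain of basement membranes, went from 0.90, 0.99 and 1.11 to 0.14, 0.14 and 0.019, a change of -0.90 (SE 0.075, adjusted p = 1.2e-05), and it changed by -1.47 with MESH1 knockdown alone.

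The filaggrin gene FLG, named after its values were seen, is the 1 fall that was larger with ATF4 silenced and also had a called interaction. It stood at 1.62, 1.53 and 1.31 in siATF4, at 0.61, 0.41 and 0.49 with both siRNAs and at -0.12, -0.28 and -0.28 in siMESH1. It fell by 0.98 on the log2 scale (SE 0.097, adjusted p = 4.5e-05) on the silenced background, against -0.22 (adjusted p = 0.10) without it, an interaction of -0.76 (SE 0.14, adjusted p = 0.0031).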

How the data were processed

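RNA of 12 RCC4 cultures was hybridised to Affymetrix human arrays. The deposited table holds log2 signals that the authors made with RMA in Affymetrix Expression Console and expressed relative to the siNT mean of each probe set. The siNT mean lay within 1.20e-04 of 0 throughout. Of 22277 probe sets, 62 were controls, 19064 had exactly 1 gene symbol, 1043 several and 2108 none, and 4310 genes had several probe sets. No low-signal filter was possible without levels. In R 4.3.3, limma 3.58.1 (lmFit, then eBayes) was fitted to the genes of all 12 arrays with group means and no blocking factor (8 residual degrees of freedom, prior 4.32), and the scripts were tested on simulated data. The number of arrays limits precision (median SE 0.0704). Python 3.11.15, pandas 2.3.3, numpy 2.4.6 and matplotlib 3.10.9 prepared tables and figures. The text names the silenced and study-followed genes, the 15 largest called rises and falls with arrays apart, the 10 largest each way with a called interaction, and called or lowest-p list members. The members and lists were chosen with earlier results of these data known. Alternatives covered centring, probe-set choice, moderation, the methods' t-test, thresholds and each array left out. P-values measure only the spread between these cultures.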

Additional observations from a re-analysis of the deposited data

Results flagged for a closer look

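The response to MESH1 knockdown differed between the backgrounds, by the limma interaction, for 414 genes in the positive and 102 in the negative direction. These numbers were 196 and 1261 under housekeeping centring, and 466 and 85 under array median centring. Unequal MESH1 silencing could not be told apart from the ATF4 background here. The cell cycle and mitosis list held 59 positive calls among 63 genes, the replication list 40 among 49 and the repair list 16 among 29. Of all genes 3.46% had a positive call. Among the leading falls the interaction was 2.03 for RRM2, 1.71 for SHCBP1, 1.36 for PBK, 1.17 for DTL, 1.16 for KIF20A, 1.10 for APOBEC3B, 1.08 for KIF14, 1.02 for NETO2, 0.66 for ASAP2 and 0.64 for MMP1. It was 1.24 for CCNE2, 0.89 for CA12, 0.79 for ACLY, 0.76 for NEK2, 0.70 for MTHFD2 and 0.57 for LAMB3. Of genes named after their values were seen, it was 1.01 for EGR1, 0.86 for MKI67 and -0.76 for FLG. Among rises it was -1.14 for SCG2, -0.91 for STON1, -0.65 for H2BC12, -0.60 for DNAI7, -0.57 for SLC41A3, 0.86 for MAP1LC3C, 0.64 for EFEMP1 and 0.53 for VEGFC. Under housekeeping centring ASAP2, EFEMP1, LAMB3, MMP1, MTHFD2 and VEGFC lost the call, at 0.41, 0.38, 0.32, 0.39, 0.44 and 0.28.

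Probe sets without a symbol, or with several, numbered 3151 and were outside the gene tests. Tested apart, 28 of them were called in siMESH1+siATF4 against siATF4, 6 higher and 22 lower, from -1.19 to 0.81.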

How the results depend on the processing

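On the ATF4-silenced background the count of 195 called genes lay between 189 and 215 when any 1 array was left out (rises 42 to 55, falls 143 to 161). The methods' t-test called 196 (41 higher, 155 lower) at its unadjusted threshold and 122 (26 higher, 96 lower) after Benjamini-Hochberg adjustment, no fold minimum 1403 (737 higher, 666 lower), and a minimum of 1 on the log2 scale 21 (4 higher, 17 lower). Housekeeping centring gave 91 rises, and every probe set taken by itself gave 84. For siMESH1 against siNT the count was 2817 under housekeeping centring, 4019 with no fold minimum and 239 with a minimum of 1, and for the interaction 1457, 1424 and 102. With an array left out the interaction count ran from 478 to 562. The numbers of the replicates were not used to pair the arrays. Same-numbered deviations correlated at -0.0491, 0.0165 and -0.0161, and the replicate block gave 195 calls (42 higher, 153 lower). The labels do not state whether cultures with the same number were run together. The ATF4 difference turned to 0.0579 under housekeeping centring and ranged from -0.0606 to 0.0540 over arrays left out. XBP1 turned to 0.0282 under housekeeping centring, CDK2 to -0.0097, CXCL5 to -0.0433 and IFI44 to 0.20 without probe sets that may cross-hybridise, and CDK2 ranged from -0.0239 to 0.0381 over arrays left out. None of these 5 genes was called, and the cause was not tested. Among named genes, calls were also lost without the first siMESH1+siATF4 array (BACH2, FOSL1, MAP1LC3C), the second (BUB1B, FANCI, KIF15, MCM4, TRIP13, UBE2C, SLC17A3, MAP1LC3C), the third (CCNE2, DNAI7), the first siATF4 array (CCNE2, UBE2C, VEGFC), the second (FOSL1) or the third (TRIP13, MAP1LC3C), and that of SCG5 without any 1 of these or the first or second siMESH1 array. Housekeeping centring lost 14 calls of named genes and the methods' t-test after adjustment 40. A filter on dim probes could not be run without levels, and no interaction could be had from 6 arrays or from the t-test. Signal over background is unknown here, so weakly expressed genes could not be told from absent ones.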

Other observations

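Of the 153 falls 64 were in a list and 89 in none. The genes of this paragraph come from those 89 and from the rises, and were chosen after their values were seen. MKI67, the Ki-67 antigen of dividing cells, fell by 0.58 on the log2 scale (SE 0.054, adjusted p = 3.2e-05). Several transporters of the renal tubule also fell. SLC4A4, a sodium bicarbonate cotransporter, was 0.15, 0.033 and -0.087 in siATF4 and -0.70, -0.61 and -0.73 with both siRNAs, a change of -0.71 (SE 0.071, adjusted p = 4.5e-05). Its 4 probe sets ranged widely, from -1.27 to -0.12. SLC2A2, the glucose transporter GLUT2, changed by -0.61, SLC22A2, the organic cation transporter OCT2, by -0.56 and SLC17A3, a urate and phosphate transporter, by -0.56. The list of renal tubule identity held 0 calls, so these transporters describe themselves and no list. SLC22A2 and SLC17A3 lost their calls under housekeeping centring, at -0.48 each.

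The insulin receptor substrates moved in opposite directions. IRS2 read 0.031, 0.039 and 0.014 in siATF4 and -0.82, -0.84 and -0.82 with both siRNAs, a change of -0.86 (SE 0.042, adjusted p = 2.4e-07). IRS1 went from 0.43, 0.38 and 0.44 to 1.03, 0.97 and 1.00, a change of 0.58 (SE 0.064, adjusted p = 0.0001). The arrays were apart for both. EGR1, an early growth response gene, and FOSL1 fell by 0.58 and 0.52, the latter with a call that was lost at -0.45 under housekeeping centring.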
